A study of Mus musculus with 4 samples.

Results

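Immediate-early genes and genes driven by neuronal activity were examined in Tomato-positive cells sorted from the regenerated mouse olfactory epithelium. The 10 genes were chosen by symbol from the 23337 genes counted in each library. They are Fos, Fosb, Jun and Junb, which encode subunits of the AP-1 transcription factor, the transcription factor genes Egr1, Nr4a1 and Npas4, the gene of the nuclear protein Ier2, Arc, which encodes a protein of the neuronal synapse, and S100a5, a calcium-binding protein gene of olfactory sensory neurons. Levels are given in CPM, gene counts scaled to a common library total. Of the 10 genes, 9 had a CPM above 1 in at least 2 libraries and were tested, and Npas4 was not.

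RNA-seq libraries were made from 4 mice of mixed background, 1 mouse per library. Control cells were Lmnb1+/- (2 K5Cre; Lmnb1 fl/+ mice) and mutant cells were Lmnb1-/- (2 K5Cre; Lmnb1 fl/fl mice), so that control cells also carried 1 deleted allele of the lamin B1 gene. Deletion of exon 2 was driven by a Cre transgene under the Keratin 5 promoter, which is active in horizontal basal cells, the reserve stem cells of this epithelium, and a Cre-dependent Tomato reporter (R26 Ai9) marked these cells and all their progeny. The epithelium of mutant mice was mosaic, since cells of other origin kept the gene. Every animal, controls included, was given 2 injections of methimazole (50 mg/kg each), which destroys the epithelium, and was left to recover for 4 weeks. The sorted population therefore mixed stem cells, progenitors, supporting cells and neurons, and each mutant had a control littermate of the same sex in its own experimental group (group 1 or group 2). Per the series' design text, the groups differed in treatment, parents, age and sex, and sample preparation and sequencing were shared within a group. Mice were treated at an age of 2 to 3 months, and the age and sex of each sample are not given in the sources used here. For sorting, cells were dissociated with papain in warm buffer. Below, control 1 and mutant 1 are the littermates of group 1.

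Immediate-early genes are transcribed within minutes of a stimulus without new protein synthesis, mostly through the cAMP and calcium responsive factor CREB and through serum response factor, and their products in turn switch on later genes. In olfactory sensory neurons, odour opens cyclic nucleotide-gated channels by way of cAMP, and calcium entry follows. S100a5 is a sensory activity marker of these neurons, since its level falls when odour input is blocked. Immediate-early genes are also induced in many other cell types and by stress during tissue dissociation.

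Gene counts per library lay between 14833396 and 23704638. Mutant 1 stood apart, with 1603 genes at 0 counts compared with 5173 to 6053 in the other libraries, and with more reads outside genes. The targeted gene Lmnb1 had 20.6 and 18.8 normalised CPM in controls and 14.1 and 10.1 in mutants, and it did not pass the test (log2 fold change -0.72, SE 0.31, edgeR adjusted p = 0.195). Its deposited count sums all exons, and only exon 2 was deleted, but the source of the counts left in mutants was not tested. By PCR outside the deleted exon, the paper reported depletion of the Lmnb1 transcript in sorted mutant cells. By antibody staining, it found that a few Tomato-positive cells of mutant epithelium still expressed lamin B1. Markers of the expected cell types were present, with Omp of mature neurons at 911 to 9653 CPM, Krt5 of horizontal basal cells at 628 to 1405 CPM and Cyp2g1 of sustentacular (supporting) cells at 1310 to 5100 CPM. Leukocyte markers were also present, and Ptprc had 5.57 to 18.2 CPM. All CPM values include trimmed mean of M-values (TMM) factors, which adjust library totals for composition.

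Promoter sequences of 4 genes are shown: Fos and Fosb because they shared a pattern across libraries, Nr4a1 because it held the most half-sites, and S100a5 because it differed in the opposite direction between experimental groups. The sequences are RefSeq promoters on build GRCm38.p6 and cover the 250 bases before the transcription start, written on the strand of the gene. They lie at chr12:85473640-85473889 (plus strand) for Fos, chr7:19310046-19310295 (minus strand) for Fosb, chr15:101266596-101266845 (plus strand) for Nr4a1 and chr3:90608272-90608521 (plus strand) for S100a5. The RefSeq start used for Nr4a1 lies inside the annotated gene. Capitals mark TGACG on either strand, the half-site of the cAMP response element bound by CREB.
Fos: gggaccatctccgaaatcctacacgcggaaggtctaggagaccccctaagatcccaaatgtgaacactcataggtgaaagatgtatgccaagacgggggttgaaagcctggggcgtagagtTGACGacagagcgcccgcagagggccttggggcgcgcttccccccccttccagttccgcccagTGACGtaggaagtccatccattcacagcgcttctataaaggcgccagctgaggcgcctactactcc
Fosb: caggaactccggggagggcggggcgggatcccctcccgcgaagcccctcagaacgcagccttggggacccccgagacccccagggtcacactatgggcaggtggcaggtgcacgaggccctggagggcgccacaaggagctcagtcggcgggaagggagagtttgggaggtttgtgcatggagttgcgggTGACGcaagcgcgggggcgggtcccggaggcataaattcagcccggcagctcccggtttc
Nr4a1: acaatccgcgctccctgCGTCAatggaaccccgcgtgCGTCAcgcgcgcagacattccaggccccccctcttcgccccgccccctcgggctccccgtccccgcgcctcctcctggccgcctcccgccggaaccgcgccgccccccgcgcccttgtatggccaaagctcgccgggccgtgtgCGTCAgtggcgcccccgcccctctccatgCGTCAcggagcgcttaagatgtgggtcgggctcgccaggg
S100a5: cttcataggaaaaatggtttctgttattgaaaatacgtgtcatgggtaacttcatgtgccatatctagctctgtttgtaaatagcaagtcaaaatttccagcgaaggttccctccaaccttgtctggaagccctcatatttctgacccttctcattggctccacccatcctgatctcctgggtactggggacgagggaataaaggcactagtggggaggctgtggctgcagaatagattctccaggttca

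Of the 10 genes, 7 were in the promoter table, and Egr1, Arc and Ier2 were not. TGACG, searched on both strands, was found in 5 of the 7, namely Fos, Fosb, Junb, Nr4a1 and Npas4, compared with 17.8% of all 32851 promoters of the same length. The Fos promoter held 2 half-sites, starting at -129 and -66 from the transcription start, and the Nr4a1 promoter held 4, the nearest at -40. The Fosb promoter held 1 half-site at -60, and the S100a5 and Jun promoters held none in this window. The full element TGACGTCA, which contains the half-site, was in 0 of 7 and in 1.55% of all promoters. The EGR motif GCGNGGGCG was in 2 of 7, Fosb and Nr4a1, and in 4.7% of all promoters. The AP-1 motif TGANTCA and the CArG box of serum response factor were in 0 of 7, compared with 6.75% and 1.47% of all promoters. These matches describe the letters of the window and are not evidence of binding. Bases farther from the start were not searched, so an absence holds for this window only.

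To ask how abundant these transcripts were, levels were compared per kilobase of the longest coding transcript. S100a5 was the most abundant by a wide margin, at 356 to 2888 CPM per kb. Fos (62.0 to 142 CPM per kb), Junb (76.0 to 93.2) and Jun (75.7 to 97.4) came next, and their ranges overlapped, so that their order is not resolved. Ier2 lay below them at 41.1 to 60.4 CPM per kb, without overlap. Fosb (8.58 to 20.8), Nr4a1 (9.03 to 15.6), Egr1 (4.48 to 11.9) and Arc (4.55 to 5.92) formed a lower tier in which each neighbouring pair overlapped. Npas4, a transcription factor gene largely restricted to neurons and induced by calcium entry, was nearly silent at 0 to 0.227 CPM per kb.

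**Figure D1:**
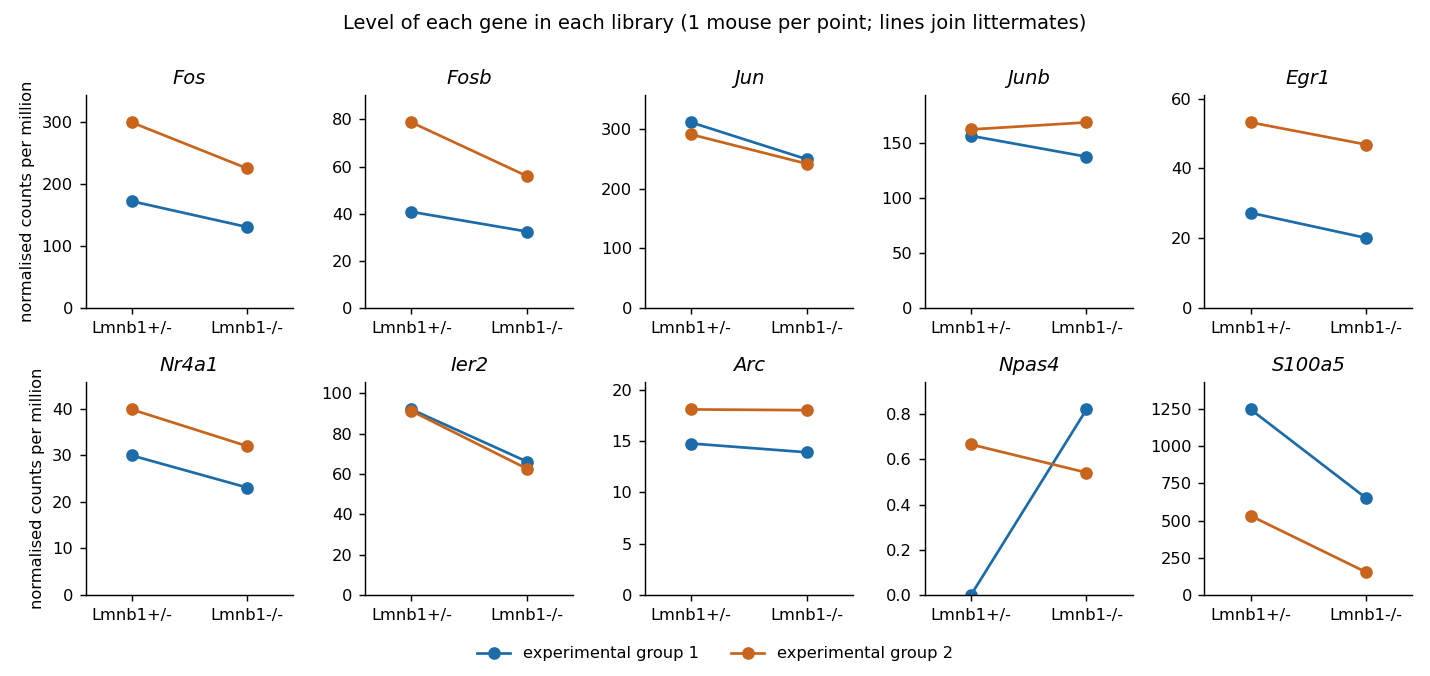
Normalised CPM (vertical axes, from 0, a separate scale for each gene) in Lmnb1+/- and Lmnb1-/- libraries; each point is 1 mouse and lines join littermates of group 1 (blue) and group 2 (orange). Each mutant is below its littermate for every tested gene but Junb, and of these S100a5 and Ier2 passed the genotype test. Fos, Fosb, Junb, Egr1, Nr4a1 and Arc are higher in both libraries of group 2 than in both of group 1.

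Mutant and control cells were compared to ask whether these genes depend on lamin B1. S100a5 and Ier2 passed the test, both lower in the mutant (2 of 9 tested members). Of all 15438 tested genes, 4.3% were called lower and 1.28% higher, 5.58% in either direction. All 9 fitted log2 fold changes were below 0, as were 51.1% of all tested genes, and the median was -0.35 compared with -0.01 over all tested genes. In 8 of the 9, every gene but Junb, the mutant was below its littermate in both groups, which held for 32.9% of tested genes. With library totals alone, without TMM factors, Arc turned to 0.014 and the other 8 stayed below 0. Without mutant 1, the library that stood apart, and so without the experimental group as a term, no member was called by edgeR and Junb, Egr1 and Arc had values above 0.

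S100a5 fell the most. In group 1 it was at 1245 CPM in the control and 649.8 CPM in the mutant, and in group 2 at 532 and 153 CPM. Each mutant was below its littermate, at 52.2% of the control in group 1 and 28.8% in group 2, but mutant 1 was above control 2, so the genotypes overlapped across groups. The fit gave a log2 fold change of -1.36 (SE 0.29, adjusted p = 0.000413 by edgeR's likelihood-ratio test), or 38.9% of the control level. Group 2 alone, which does not hold mutant 1, gave a ratio of -1.79 and group 1 of -0.94. The gene lies on chromosome 3 (90608523 to 90611780, plus strand, mm10), and its longest coding transcript of 431 bases has 3 exons. The call was kept by the quasi-likelihood test of edgeR (adjusted p = 0.0146) and by DESeq2 (adjusted p = 4.24e-11). It was lost when the experimental group was not a term (edgeR adjusted p = 1.00) and when genes with few counts were kept (edgeR adjusted p = 0.218).

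Because the sorted cells were a mixture, S100a5 was set beside Omp, the olfactory marker protein gene of mature neurons. Omp was at 9653 and 5338 CPM in the control and mutant of group 1 and at 3263 and 911 CPM in those of group 2. S100a5 counts amounted to 12.9% of Omp counts in control 1 and 12.2% in mutant 1, and to 16.3% in control 2 and 16.8% in mutant 2. Within each group the ratio therefore differed little between littermates while the level of both transcripts fell, and the ratio differed more between groups than between genotypes. The difference of the ratio was not tested. Of 15 tested mature neuron markers, 13 were lower, and their summed level was 20423 and 11497 CPM in the control and mutant of group 1 and 10000.3 and 3415 CPM in group 2. In mutant 2 alone, 1 of the 16 listed markers was at 0 counts. Markers of other cells moved too. Higher were 4 of 7 globose basal (progenitor) markers, Kit, Hes6, Mki67 and Top2a, and 2 of 7 horizontal basal markers, Krt15 and Egfr. For genotype, 0 of 9 sustentacular and 0 of 19 leukocyte markers passed by edgeR (3 and 0 at an unadjusted p under 0.05). Of the 9 sustentacular markers, 8 had values above 0, with a median of 0.38. Leukocyte markers had a median log2 ratio of -1.61 in group 1 and 1.29 in group 2, so the littermate pairs differed in opposite directions. In the same direction as S100a5, 3 of 11 markers of glia, endothelium and fibroblasts were lower, Fabp7 (-1.04), Col1a1 (-0.65) and Col1a2 (-0.76). Of these 11, 6 had values below 0 and 5 above, with Dcn the highest at 0.68 (not called), so the list had no common direction. Among 10 immature neuron markers, 1 was lower, Dcx (-0.63). The part of these cells in the S100a5 value was not tested. In such bulk samples, fewer mature neurons and less RNA of these genes per neuron cannot be told apart.

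Across the 4 libraries, the pattern of S100a5 was matched most closely by Kirrel2 among 10743 genes with a mean of at least 10 CPM. The mean absolute difference between the log2 levels, each centred on its own mean, was 0.02. Kirrel2 encodes an adhesion molecule of olfactory axons whose level rises with neuronal activity. Its level went from 981 CPM in the control to 523 CPM in the mutant of group 1 and from 433 to 121 CPM in group 2. The next genes were Ano2, the chloride channel of the odour response (0.05), Gldc (0.07), Dlgap3 (0.07) and Adcy3, the adenylyl cyclase of the odour response (0.07). Among the other 8 tested members, the closest to S100a5 was Jun, at a difference of 0.79 and rank 2924.

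**Figure D2:**
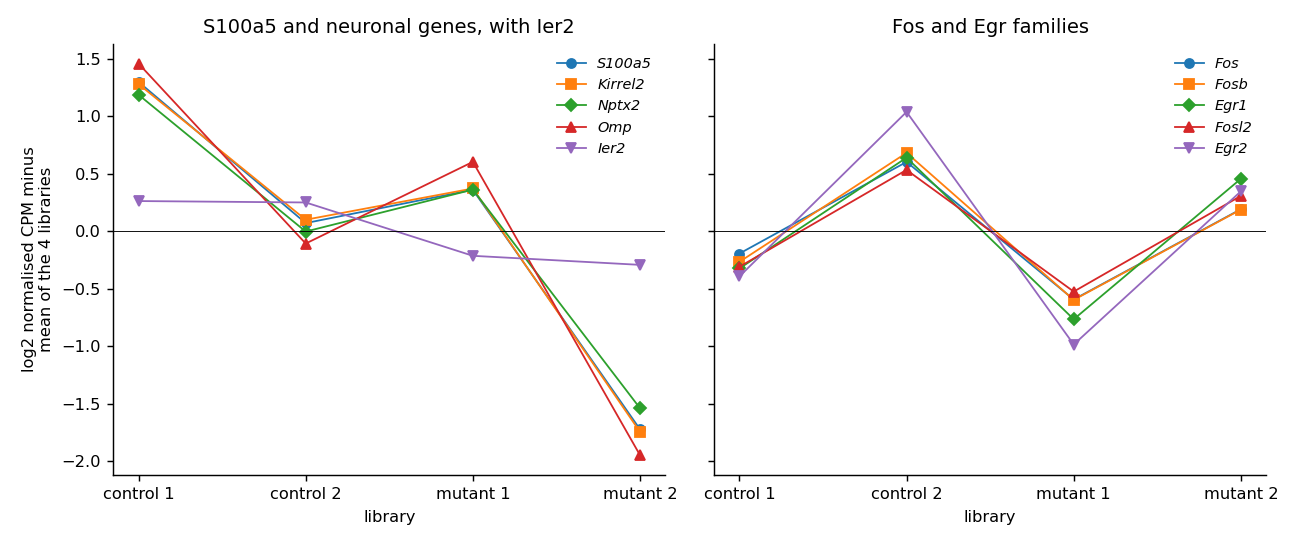
Log2 normalised CPM minus the mean of the 4 libraries (vertical axis) for each library (horizontal axis); lines only join the points of a gene. S100a5 and Kirrel2 nearly coincide, with mutant 2 lowest, Ier2 separates controls from mutants, and the Fos and Egr genes are highest in control 2 and lowest in mutant 1.

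Other genes known to follow neuronal activity in olfactory axons were examined next. Of 7 adhesion and guidance genes, 4 passed as lower in the mutant and 0 as higher, where 4.3% and 1.28% of all tested genes did. The median log2 fold change of the 7 was -0.93. Of the 15 tested mature neuron markers, 13 were lower, with a median of -1.29, so the fall was not particular to activity genes. The lower genes were Kirrel2 (-1.37, SE 0.29), Kirrel3 (-0.93, SE 0.22), the ephrin receptor gene Epha5 (-0.97, SE 0.30) and the protocadherin gene Pcdh10 (-1.09, SE 0.28), with edgeR adjusted p of 0.000342, 0.00195, 0.0293 and 0.00628. Kirrel2 is known to rise and Kirrel3 to fall with activity, and here both were lower. S100a5, Kirrel2, Kirrel3 and Epha5 belong to a gene list that the study itself compared in these libraries, so their count is not independent evidence. Efna5, Pcdh17 and Pcdh19 had log2 fold changes of -0.35, -0.21 and -0.14 and did not pass. Of 10 tested genes of later neuronal activity responses, 1 was lower, Nptx2, which encodes a secreted synaptic protein, and 0 were higher. Of these 10, 5 had values below 0 and 5 above, so the list had no common direction. Nptx2 was at 224 and 127 CPM in the control and mutant of group 1 and at 98.4 and 33.9 CPM in group 2. S100a5 and Omp had the same order of libraries. The log2 fold change of Nptx2 was -1.17 (SE 0.21, adjusted p = 1.33e-05 by edgeR).

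Ier2, which encodes a nuclear protein induced by growth factors, was the other member that passed. Its level was 92.0 and 91.2 CPM in the controls of groups 1 and 2 and 66.1 and 62.6 CPM in the mutants. Both mutants were below both controls, which held for Ier2 and Jun among the 9 genes and for 13.4% of all tested genes. Ier2 fell by 0.51 on the log2 scale (SE 0.16, adjusted p = 0.0327 by edgeR's likelihood-ratio test), and the ratios of -0.48 in group 1 and -0.54 in group 2 were close. Ier2 is a single-exon gene on chromosome 8 (84661331 to 84662852, minus strand). The size hardly moved with the method, but the call was lost by the quasi-likelihood test (edgeR adjusted p = 0.0658) and by DESeq2 (adjusted p = 0.108). It was also lost without TMM factors, with genes of few counts kept and without the experimental group as a term (edgeR adjusted p = 0.0968, 0.0936 and 1.00).

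The AP-1 genes did not pass. Fos, on chromosome 12 (85473890 to 85477273), was at 172 CPM in the control and 131 CPM in the mutant of group 1, and at 299 and 225 CPM in group 2. Its ratio was nearly the same in both groups, at 75.8% and 75.2% of the littermate control, and its log2 fold change was -0.40 (95% interval -0.81 to 0.0019, edgeR adjusted p = 0.319). Fosb (chromosome 7, 19302696 to 19310051), its close relative, was at 40.8 and 32.4 CPM in group 1 and at 78.7 and 55.9 CPM in group 2, with a log2 fold change of -0.41 (95% interval -0.75 to -0.07, edgeR adjusted p = 0.175). The libraries kept the same order for both genes, and the ratio of Fos to Fosb counts stayed between 3.81 and 4.23. For both, control 1 was below mutant 2, and without control 2, and so without the experimental group as a term, the values were 0.089 and 0.16.

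Jun (chromosome 4, 95049034 to 95052222), the dimerisation partner of the Fos proteins, was at 311 and 290.5 CPM in the controls of groups 1 and 2 and at 249 and 241 CPM in the mutants. Both mutants were below both controls, but the log2 fold change of -0.29 (95% interval -0.72 to 0.14) did not pass (edgeR adjusted p = 0.603). Junb (chromosome 8, 84974484 to 84978718) was at 156 CPM in the control and 137 CPM in the mutant of group 1, and at 162 and 169 CPM in group 2. It had no common direction in the littermates and a log2 fold change of -0.06 (95% interval -0.45 to 0.32, edgeR adjusted p = 0.948). Junb exons overlap those of Prdx2 on the opposite strand and Jun exons those of the antisense gene Junos. The strand setting of the counting is not given in the sources used here, so reads of such partners may not be separable. Together the 4 AP-1 transcripts amounted to 680.2 and 549.6 CPM in the control and mutant of group 1 and to 831 and 691 CPM in group 2.

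Among the other transcription factor genes, Egr1, a zinc finger factor gene on chromosome 18, was at 27.3 and 20.1 CPM in the control and mutant of group 1 and at 53.2 and 46.8 CPM in those of group 2. The difference between groups exceeded that between littermates, and the log2 fold change for genotype was -0.31 (95% interval -0.69 to 0.08, edgeR adjusted p = 0.488). Nr4a1, an orphan nuclear receptor gene on chromosome 15 (101254269 to 101274795), was at 29.96 and 23.1 CPM in group 1 and at 39.8 and 31.95 CPM in group 2, with a log2 fold change of -0.35 (95% interval -0.76 to 0.07, edgeR adjusted p = 0.458). Each mutant was again below its littermate, at 77.0% and 80.2% of its level, and the genotypes overlapped across groups.

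Arc and Npas4 are best known from neurons of the brain. Arc, on chromosome 15 (74669083 to 74672570), had 342 and 322 counts (14.8 and 13.9 CPM) in the control and mutant of group 1 and 380 and 266 counts (18.08 and 18.01 CPM) in group 2. Littermates were nearly equal, and the log2 fold change of -0.04 had a wide interval (-0.64 to 0.55, edgeR adjusted p = 0.980). Npas4, on chromosome 19 (4984355 to 4990316), had 0 counts in the control and 19 in the mutant of group 1, and 14 and 8 counts in group 2. With 3 counts taken for control 1, the limit that a count of 0 allows, the value of mutant 1 was 6.34-fold higher. This figure takes the 19 counts of mutant 1 as exact and leaves out variation between mice, so it is not a lower bound. Mutant 2 was at 81.3% of control 2. Mutant 1 is the library with few genes at 0 counts, and the part of this in the Npas4 value was not tested.

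**Figure D3:**
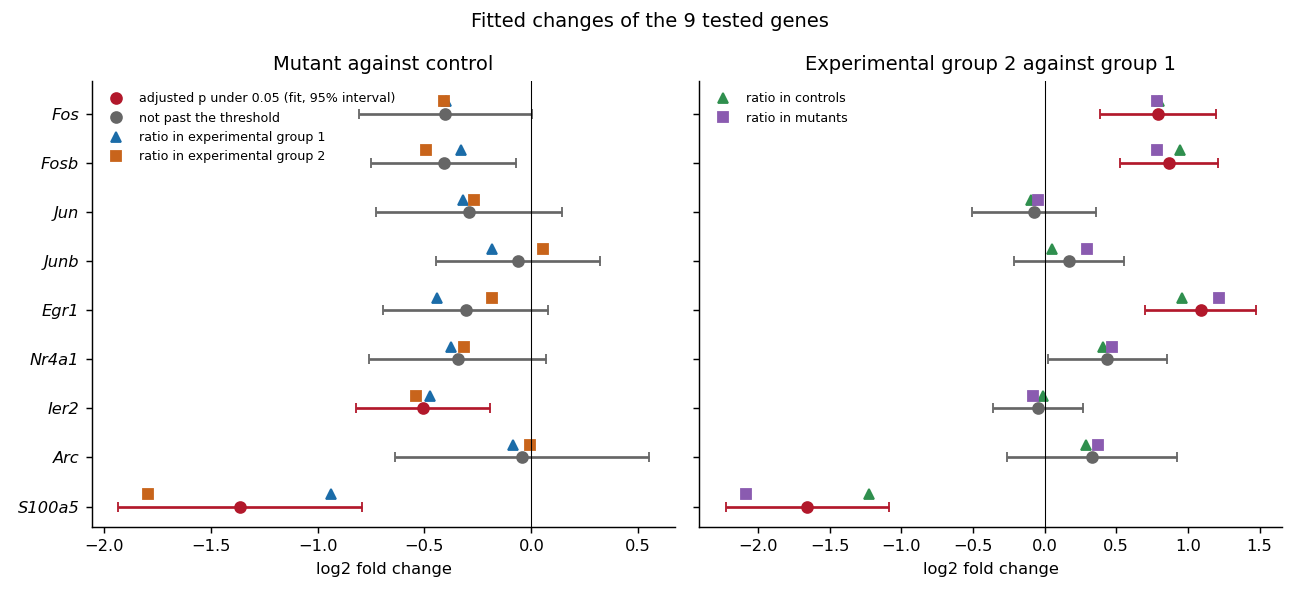
Log2 fold change (horizontal axes) of the 9 tested genes, for mutant against control (left) and for group 2 against group 1 (right); circles with bars are fitted values with 95% intervals, red where the adjusted p was under 0.05, and triangles and squares are the ratios of single libraries. S100a5 and Ier2 are red on the left, and Fos, Fosb, Egr1 and S100a5 are red on the right.

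To place these values, 48 further immediate-early genes with enough counts were tested, out of 51 listed. Of these, 0 were called in mutant cells by the edgeR likelihood-ratio test, and 1 had an unadjusted p under 0.05. Their median log2 fold change was -0.03, and 26 were below 0 and 22 above. Of the other AP-1 genes, Jund and Fosl2 had log2 fold changes of -0.23 (SE 0.21) and -0.22 (SE 0.21). The most abundant of the remaining immediate-early genes were Sgk1, Dusp6 and Mcl1, with log2 fold changes of 0.27, 0.08 and -0.03. Of 31 genes of upstream signalling, 2 fell and 0 rose, near the shares of 4.3% lower and 1.28% higher over all tested genes. The 2 encode calcium/calmodulin pathway kinases, Camkk2 (-0.91, SE 0.22, edgeR adjusted p = 0.00266) and Camk2d (-0.59, SE 0.19, edgeR adjusted p = 0.0393). Other kinase genes of this pathway in the list, Camk2a, Camk2b, Camk2g and Camk4, did not pass. Heat shock genes were examined because cell dissociation can induce them together with immediate-early genes. Of 13, 0 passed for genotype with the same test (2 at an unadjusted p under 0.05). Their median log2 fold change was -0.18, with 10 below 0 and 3 above. In 10 of the 13 the mutant was below its littermate in both groups, as in 32.9% of tested genes.

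**Figure D4:**
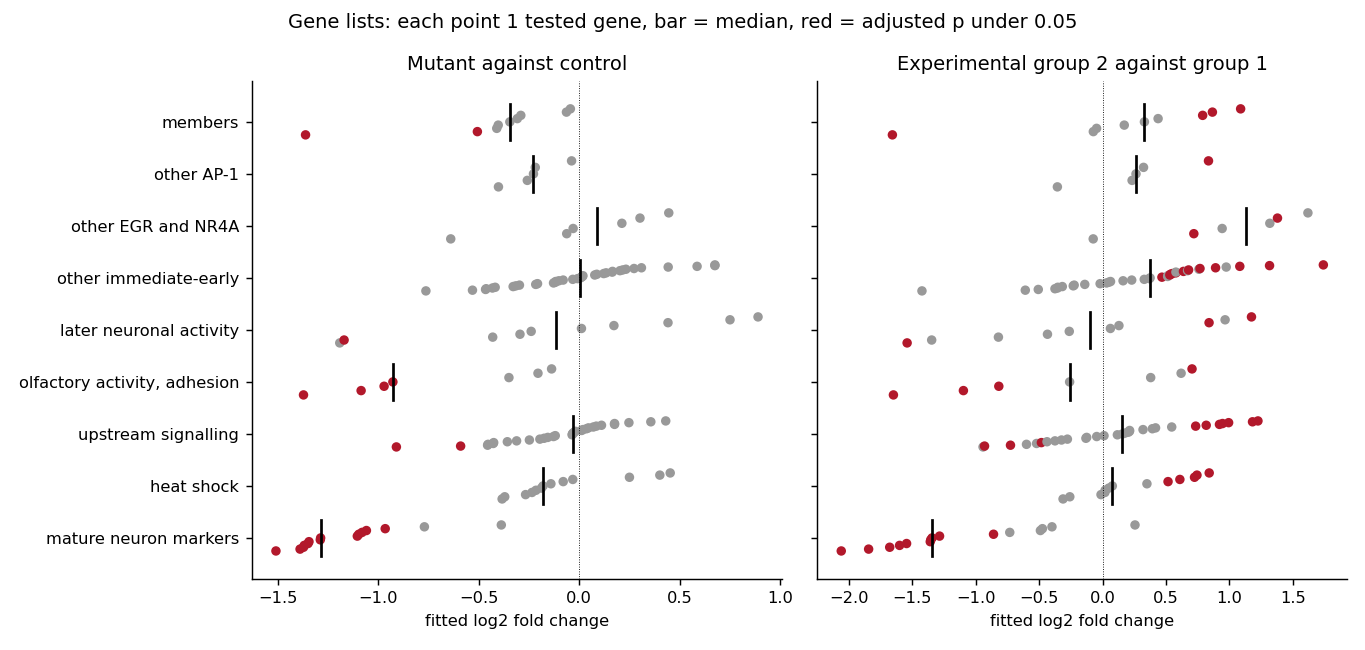
Fitted log2 fold change (horizontal axes) of each tested gene in 9 lists (rows), for mutant against control (left) and group 2 against group 1 (right); black bars are medians and red points have an adjusted p under 0.05. On the left red points are found mainly among mature neuron markers and olfactory activity genes, and on the right the other immediate-early genes that pass are all higher in group 2.

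The experimental groups were then compared, with genotype as a term, because they separated several members more than genotype did. Each group was 1 pair of littermates handled together. SE and adjusted p for this comparison, here and below, therefore do not measure variation between litters or rounds of handling. Fos, Fosb and Egr1 were higher in group 2 (3 of 9, where 17.7% of all tested genes were called higher) and S100a5 was lower (1 of 9, where 14.0% were called lower and 31.6% in either direction). Egr1 differed the most among the higher genes, at a log2 difference of 1.09 (SE 0.20, edgeR adjusted p = 8.59e-07), followed by Fosb (0.87, SE 0.17, edgeR adjusted p = 1.02e-05) and Fos (0.79, SE 0.21, edgeR adjusted p = 0.00101). S100a5 differed in the opposite direction, by -1.66 (SE 0.29, edgeR adjusted p = 7.25e-07). The remaining 5 did not pass. Both libraries of group 2 lay above both of group 1 for Fos, Fosb, Junb, Egr1, Nr4a1 and Arc, 6 of the 9, as for 31.4% of tested genes, and below them for S100a5, 1 of 9, as for 30.0%. Nr4a1, Arc and Junb had values of 0.44, 0.33 and 0.17, and Ier2 and Jun of -0.05 and -0.07. Without mutant 1, S100a5 alone was called, and 0 of the 3 higher genes were. Fos was called in none of the 4 edgeR fits that left out 1 library. Without the block of littermates, that is with the experimental group tested alone, Fosb and Egr1 were called and Fos and S100a5 had edgeR adjusted p of 0.112 and 0.0716.

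The higher members did not move alone. Over all tested genes, 17.7% were called higher in group 2 and 14.0% lower. Of the 48 further immediate-early genes, 15 were higher in group 2 and 0 were lower, and the median was 0.42 compared with -0.03 over all tested genes. They included Fosl2 (0.83, SE 0.21), Egr2 (1.38, SE 0.51), the EGR co-repressor gene Nab1 (0.72, SE 0.17), Zfp36, which encodes a protein that destabilises mRNA (1.08, SE 0.29), and the CREB family gene Crem (1.74, SE 0.43), with edgeR adjusted p of 0.00047, 0.028, 0.000298, 0.00144 and 0.000503. Crem was at 3.93 and 4.28 CPM in the control and mutant of group 1 and at 12.4 and 15.2 CPM in those of group 2. Among later activity genes Homer1 and Dusp4 were higher (1.17 and 0.84) and Nptx2 was lower (-1.54). Of the 31 upstream genes, 7 were higher and 3 were lower, with a median of 0.16. These counts lay near the shares of 17.7% and 14.0% over all tested genes. The upstream genes named next were chosen after their values were seen. Creb1 itself was higher in group 2 (0.82, SE 0.18, edgeR adjusted p = 5.07e-05), as were its co-activator genes Crebbp (0.99) and Ep300 (0.73), whereas Prkaca, a catalytic subunit gene of protein kinase A, was lower (-0.73). The CREB co-activator genes Crtc1, Crtc2 and Crtc3 had 0.20, 0.55 and -0.05 and did not pass.

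Cell type markers and stress genes also differed between the groups, where 31.6% of all tested genes were called in either direction. The summed level of 9 sustentacular markers was 8916 and 10960 CPM in group 1 and 17828 and 22590 CPM in group 2, control first, and none of them was at 0 counts. Of 19 tested leukocyte markers, 7 were lower and 1 was higher in group 2, and 0 to 3 of the 21 listed were at 0 counts in a library. Their sum was 1102 and 529.9 CPM in group 1 and 885 and 1016 CPM in group 2. Without Lyz2, the marker that was higher, it was 879 and 376 CPM in group 1 and 192 and 433 CPM in group 2. Both sums were lower in group 2 among controls but higher in group 2 among mutants. Of 11 markers of glia, endothelium and fibroblasts, 5 were lower in group 2 and 1 was higher, with Col1a1 at -2.99 (SE 0.19, edgeR adjusted p = 8.55e-46), Col1a2 at -2.78 and Col3a1 at -2.48. The sum of the 11 was 1079 and 683 CPM in group 1 and 359 and 553 CPM in group 2. Of this sum Dcn, the marker that was higher, made up 165 and 194 CPM in group 1 and 190 and 412 CPM in group 2. Of 7 horizontal basal markers, 4 were lower and 2 were higher. Of 13 heat shock genes, 5 were higher in group 2 and 0 lower, including Hsp90aa1 (0.84, SE 0.26, edgeR adjusted p = 0.00687). Of 15 mature neuron markers, 10 were lower and 0 higher, with a median of -1.34. Alignments not assigned to a gene made up 76.1% and 77.7% of all in group 1 and 45.4% and 43.1% in group 2. The part of cell composition, dissociation stress or library properties in the levels of Fos, Fosb and Egr1 was not tested, and treatment, parents, age, sex and any difference in preparation or sequencing cannot be told apart.

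Fos was closest in pattern to Opa1, Rab33b, Yipf6, Tsc22d2 and Lifr among the same 10743 genes, with mean absolute differences of 0.02 to 0.04 in centred log2 levels. Fosb was next to them at rank 7 (0.04), and Egr1 lay at rank 416 (0.15). S100a5 was at rank 10613, with a difference of 1.22. With 4 libraries many genes share a pattern, so these ranks are descriptions only.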

How the data were processed

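RNA was sequenced from Tomato-positive cells of 4 mice. Unnormalised read counts of each gene symbol were deposited. The authors depleted ribosomal RNA, removed reads matching it with Bowtie2 2.0.6, aligned the rest to mm10 with TopHat2 2.0.7 and counted reads per gene with HTSeq (intersection-nonempty mode), per the labels and the study's methods. Reads with several alignments are set aside by HTSeq. Its strand setting and annotation are not given in the sources used here. The 5 tally lines, 43.1% to 77.7% of all counted alignments, entered neither library sizes nor tests. No per-sample column was left unused.

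Genes with a CPM above 1 in at least 2 libraries entered edgeR 4.0.16 (R 4.3.3), with TMM factors, genotype and experimental group as terms, likelihood-ratio tests and Benjamini-Hochberg adjustment over all tested genes (threshold 0.05). The experimental group served as replicate block because littermates shared handling. The deviation from the genotype mean correlated between littermates (r = 0.52 across 15438 genes, which are not independent). Standard errors and 95% intervals are Wald values. Ratios within a group used log2 CPM with a prior count of 2 and have no test. With 2 mice per genotype, an exact two-sided permutation test cannot go below 0.333. Transcript lengths are from GENCODE M21 on the same build. A count of 3 corresponds to 0.129 to 0.203 CPM, and this limit covers counting error only.

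The members and gene lists were chosen with earlier results of these data known. The rule for named genes took all members, from each list the genes past the genotype threshold and the 3 with the highest mean CPM, and the 5 genes nearest in pattern to S100a5 and to Fos. Part of the list genes it took are printed. List genes named in the comparison of experimental groups were chosen after their values were seen. The alternatives tried were DESeq2 1.42.0, the quasi-likelihood test of edgeR, no replicate block, RLE factors, no scaling factors, no filter on low counts, CPM above 1 in all 4 samples, tally lines kept, and leaving out each library.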

Additional observations from a re-analysis of the deposited data

Results flagged for a closer look

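Npas4 had ratios of opposite sign in the experimental groups, with a log2 ratio of mutant to control of 3.24 in group 1 and -0.26 in group 2. The first ratio is set by the prior count, because control 1 had 0 counts, and the difference between groups was not tested. Junb had log2 ratios of -0.19 in group 1 and 0.056 in group 2, and this difference was not tested either. Alignments outside genes, a tally not used above, came to 39.4% of unique alignments for mutant 1 against 23.8% and 24.9% for the controls, and a relation to the members' values was not tested.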

How the results depend on the processing

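The 2 genotype calls among the members depended on the processing. The quasi-likelihood test, DESeq2 and fits without scaling factors each left 1 (S100a5), and a fit without the filter on low counts left 0, as did each fit without 1 library. The fit without the filter also moved the median of all genes to 0.14 (log2). Over all genes, 664 were lower and 197 higher. The quasi-likelihood test called 115 higher, and leaving out 1 library gave 0 to 5 lower and 3 to 33 higher. The cause was not tested, but fits without 1 library had fewer samples and no replicate block.

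With no replicate block, the counts were 0 lower and 6 higher genes (348 at an unadjusted edgeR p under 0.05), and 0 members were called. For the experimental group, the same fit called 910 lower and 1544 higher genes in place of 2156 and 2729, and 0 members lower in place of 1. Leaving out 1 library gave 207 to 1038 lower and 251 to 1280 higher genes, and among the members 0 to 1 lower and 0 to 2 higher.

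Directions turned for members that had not passed the test. With 1 library left out, genotype values ran from -0.82 (without mutant 2) to 0.089 (without control 2) for Fos, from -0.85 to 0.16 for Fosb, from -0.97 to 0.34 for Egr1 and from -0.20 to 0.15 for Arc in the same fits, and from -0.18 without mutant 2 to 0.075 without mutant 1 for Junb, with 0.012 without control 2. Without mutant 1, values were 0.21 for Egr1 and 0.13 for Arc, and without scaling factors Arc had 0.014. For the experimental group, Jun ran from -0.24 without mutant 1 to 0.072 without control 1 (0.057 without mutant 2), and Ier2 from -0.32 without control 2 to 0.21 without mutant 2 (0.20 without control 1), with 0.019 without the filter. S100a5 stayed below 0 for genotype in every fit run, from -0.39 without control 1 to -2.54 without mutant 1. Among the alternative fits of single members, 175 values kept their direction and side of the threshold, 27 kept the direction and lost the call, and 14 turned. Each experimental group alone, with no test, gave the same sign in 17 of 18 values, the exception being Junb in group 2 (0.056). Npas4, with 0 to 19 counts per library, was below the depth needed for a test.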
